A study of Mus musculus with 12 samples.

Results

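The comparison described here set all cells that were cultured in the bore of a superconducting magnet, whatever their apparent gravity level, against cells cultured outside it. MLO-Y4 is a mouse osteocyte-like line, labelled as derived from long bone of mice aged 14 days. Its cells stayed for 48 h in the steep field of the magnet (LG-HMF, large gradient high magnetic field) at 1 of 3 positions, named μ-g (12 T), 1-g (16 T) and 2-g (12 T), or in a control incubator in the geomagnetic field at normal gravity. Each group had 3 arrays, so the bore contrast compared 9 magnet arrays with 3 control arrays, all 12 arrays of the series, over 19938 genes. The contrast was the mean of the 3 magnet groups, each with equal weight, minus control, on log2 values, so that a change of 1 is a doubling. All cells were of the same line and grew in the same medium. The 3 plates of the bore shared an object holder and a separate supply of warmth and CO2, so field, bore environment and culture vessel position cannot be told apart from one another against control. The labels number 3 biological replicates per group but do not say that they were separate cultures, so the p-values measure only the spread between these samples, which may be technical.

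Diamagnetic levitation balances the weight of water-rich matter with the force of a strong field gradient. The same bore holds positions where that force opposes gravity, vanishes or adds to it, and the 1-g position carries a strong field with no net force. A change shared by the 3 positions is therefore shared across gravity levels, while a change tied to gravity would differ between μ-g and 2-g cells. Osteocytes are the cells embedded in bone matrix that sense load and signal to bone-forming and bone-resorbing cells through secreted factors, among them sclerostin. The MLO-Y4 line was made from a mouse carrying a viral oncogene under the osteocalcin promoter, is known for dendritic shape and high podoplanin and connexin 43, and is known to make little sclerostin.

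No osteocyte marker was called in the bore contrast as fitted, without a replicate block. Podoplanin (Pdpn) read 12.06 to 12.36 (median 12.20) on the 9 magnet arrays, against 12.12, 12.08 and 12.36 on the control arrays. Connexin 43 (Gja1) read 11.95 to 12.39 (median 12.14) on the 9 magnet arrays, against 12.08, 12.09 and 12.20 on the control arrays. Both were among the bright genes of the arrays, whose median gene lay between 7.47 and 7.545. The sclerostin gene Sost read 7.08 to 7.44 (median 7.28) on the 9 magnet arrays, against 7.23, 7.43 and 7.38 on the control arrays, and the matrix phosphoprotein gene Dmp1 read 5.42 to 5.78 (median 5.67) on the 9 magnet arrays, against 5.53, 5.76 and 5.66 on the control arrays, near or under the median of all genes. The arrays hold no detection call, so absence of these transcripts could not be decided. Of the 21 measured osteocyte and osteoblast markers none was called, and none was called among the 16 macrophage, 14 osteoclast, 10 adipocyte, 10 endothelial, 10 epithelial and 8 lymphocyte markers. At an unadjusted p under 0.05 in limma, 3 osteocyte and osteoblast, 2 adipocyte and 2 endothelial markers were higher, and 1 macrophage and 1 epithelial marker were lower. Over all 19938 genes, 2003 were higher and 986 lower at that threshold. The mean level of the macrophage list was 6.32 to 6.47 on the magnet arrays, against 6.35 to 6.39 on the control arrays.

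The bore contrast called 286 of 19938 genes (1.43%) at an adjusted p under 0.05 in limma, of which 188 (0.943% of all genes) were higher and 98 (0.492%) were lower in magnet cells. The changes were small. Their median size was 0.27 on the log2 scale, the smallest was 0.16 and the largest 1.12. Only Htra4 rose by more than 1.5-fold, 7 genes fell by more than 1.5-fold, and Crct1 alone fell by more than 2-fold. At an unadjusted p under 0.05 there were 2989 genes (15%). The last genes inside the threshold were Msra, Sec23a and Ift88, with adjusted p values of 0.0485, 0.0497 and 0.0497, and the first outside were Eif2b3, Milr1 and Nfia with 0.0504, 0.0513 and 0.0516. The balance of directions depended on scaling, since 65.7% of calls were higher in these values, 55.9% after the arrays were centred on their medians (118 higher and 93 lower) and 45% after quantile normalization (108 higher and 132 lower).

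For 232 called genes (1.16% of all genes), all 9 magnet arrays lay beyond all 3 control arrays, 164 above (0.823%) and 68 below (0.341%). Whether called or not, 690 genes (3.46%) had this separation, 506 above (2.54%) and 184 below (0.923%). By a separate criterion, 232 of the 286 called genes had changes in each magnet group of between 0.5 and 1.5 times the pooled change. A magnet group with a change of opposite sign occurred in 4. The 3 changes share the control arrays, and the genes were selected for their pooled change, so some likeness among positions is built in. The difference between 2-g and μ-g cells, which does not use the control arrays, had a median size of 0.10 over the called genes, and it exceeded the bore change in 30 of the 286. An F test among the 3 magnet groups in the same fit called 34 of the 286 genes (11.9%), against 486 of all 19938 (2.44%).

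**Figure D1:**
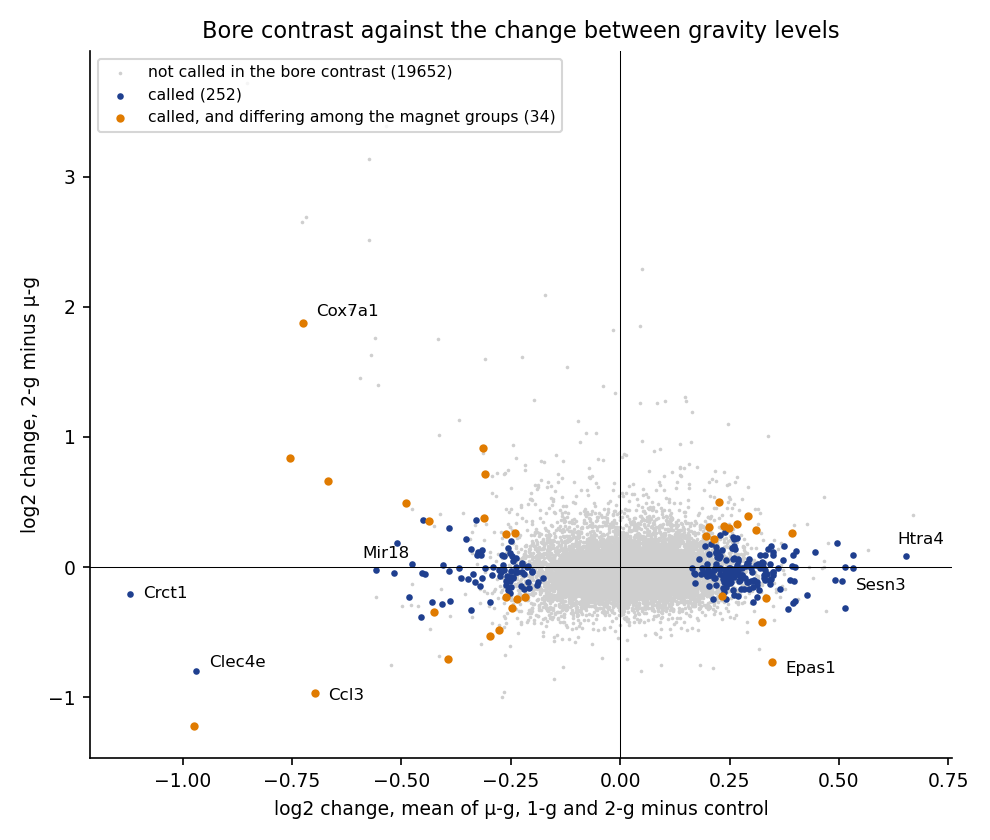
Each point is 1 of 19938 genes, with the log2 change of the 9 magnet arrays against the 3 control arrays on the x axis and the log2 difference of 2-g minus μ-g cells on the y axis. The 286 called genes are in blue, and in orange where the magnet groups also differed (34 genes), and most of the blue points lie near 0 on the y axis, while the grey points high on the left are genes that separate the gravity levels without being called in the bore contrast.

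Without a replicate block, the calls rested on few arrays. With 1 array left out, 46 genes were called without control replicate 3, 74 without control replicate 1 and 87 without control replicate 2. Among the magnet arrays, 93 were called without 2-g replicate 3, 112 without 1-g replicate 3, 127 without μ-g replicate 3, 136 without μ-g replicate 1, 171 without 2-g replicate 1 and 180 without 1-g replicate 2, but 467 without μ-g replicate 2. All 286 genes kept their direction in each of these 12 refits, which the selection of called genes makes likely. A core of 19 genes, 12 higher and 7 lower, was called under all 21 alternative settings that could test them, and these genes are marked in what follows as kept throughout. The fit of all transcript clusters was not among these 21.

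The 15 highest called genes without overlap were Htra4, Psrc1, Slc5a3, D3Ertd751e, Fam13a, Sesn3, Wdr78, Stxbp4, Castor2, Ccng1, Pakap, Parp11, Marf1, Ubxn2b and Pros1, with log2 changes of 0.65 down to 0.40. Sesn3, a sestrin that restrains the growth kinase complex mTORC1, had the smallest p of all genes. It read 8.52 to 8.80 (median 8.65) on the 9 magnet arrays, against 8.10, 8.20 and 8.11 on the control arrays. The change was 0.51 ± 0.05 (SE), adjusted p = 0.00149, and it was kept throughout. Castor2, of the CASTOR family that senses arginine upstream of the same complex, read 8.49 to 8.74 (median 8.63) on the 9 magnet arrays, against 8.06, 8.26 and 8.18 on the control arrays. Its change was 0.44 ± 0.06 (SE), adjusted p = 0.00666, and this call was also kept throughout. The lowest magnet array of both genes stood above the highest control array, as the selection of these 15 genes requires.

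Htra4, a secreted serine protease of the HtrA family, had the highest change of the contrast but a wide control group. It read 10.56 to 10.96 (median 10.81) on the 9 magnet arrays, against 9.67, 10.30 and 10.38 on the control arrays. Control replicate 1 stood apart from the other 2 control arrays, and without it the adjusted p was 0.0800, with the change still above 0. Its overall change was 0.65 ± 0.13 (SE), adjusted p = 0.0335, and it was called in 6 of the 12 leave-one-out refits. Slc5a3, the sodium-coupled transporter that brings the osmolyte myo-inositol into cells, read 8.86 to 9.49 (median 9.07) on the 9 magnet arrays, against 8.66, 8.50 and 8.60 on the control arrays. Its change of 0.53 ± 0.11 (SE), adjusted p = 0.0371 was called in 4 of the 12 refits and reached an adjusted p of 0.139 without control replicate 3.

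Several of the 15 were called under all of the 21 settings that tested them. Wdr78, an intermediate chain of the dynein motor of cilia, read 7.58 to 7.91 (median 7.73) on the 9 magnet arrays, against 7.43, 7.18 and 7.08 on the control arrays. Marf1, an RNA-cutting regulator first known from the mouse oocyte, read 10.49 to 10.63 (median 10.57) on the 9 magnet arrays, against 10.24, 10.12 and 10.11 on the control arrays. Stxbp4, a partner of membrane fusion syntaxins, read 9.74 to 10.02 (median 9.90) on the 9 magnet arrays, against 9.49, 9.41 and 9.29 on the control arrays. In each case the control arrays lay below the magnet arrays. The 3 magnet groups lay close together for Marf1 and Stxbp4. For Wdr78 the 2-g arrays were the highest, with changes of 0.44 in μ-g, 0.42 in 1-g and 0.62 in 2-g cells. Their changes were 0.50 ± 0.07 (SE), adjusted p = 0.00666 for Wdr78, 0.40 ± 0.05 (SE), adjusted p = 0.00600 for Marf1 and 0.49 ± 0.06 (SE), adjusted p = 0.00666 for Stxbp4, all kept throughout. Parp11, an ADP-ribosyltransferase, was kept throughout too, at 0.40 ± 0.06 (SE), adjusted p = 0.00906. D3Ertd751e, a gene with no role given here, read 7.36 to 7.67 (median 7.52) on the 9 magnet arrays, against 7.02, 7.14 and 6.85 on the control arrays and was called in each of the 20 settings that tested it. Fam13a (0.51 ± 0.08 (SE), adjusted p = 0.0110), Pakap, a fusion of an anchoring protein for protein kinase A (0.40 ± 0.06 (SE), adjusted p = 0.00951), and Pros1, which encodes the anticoagulant protein S (0.40 ± 0.06 (SE), adjusted p = 0.00880), lost their calls without control replicate 3 at adjusted p values of 0.0705, 0.0536 and 0.0504. Ubxn2b, a cofactor of the unfolding ATPase p97, was called in 5 of the 12 refits, with 0.40 ± 0.08 (SE), adjusted p = 0.0289 on all arrays.

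**Figure D2:**
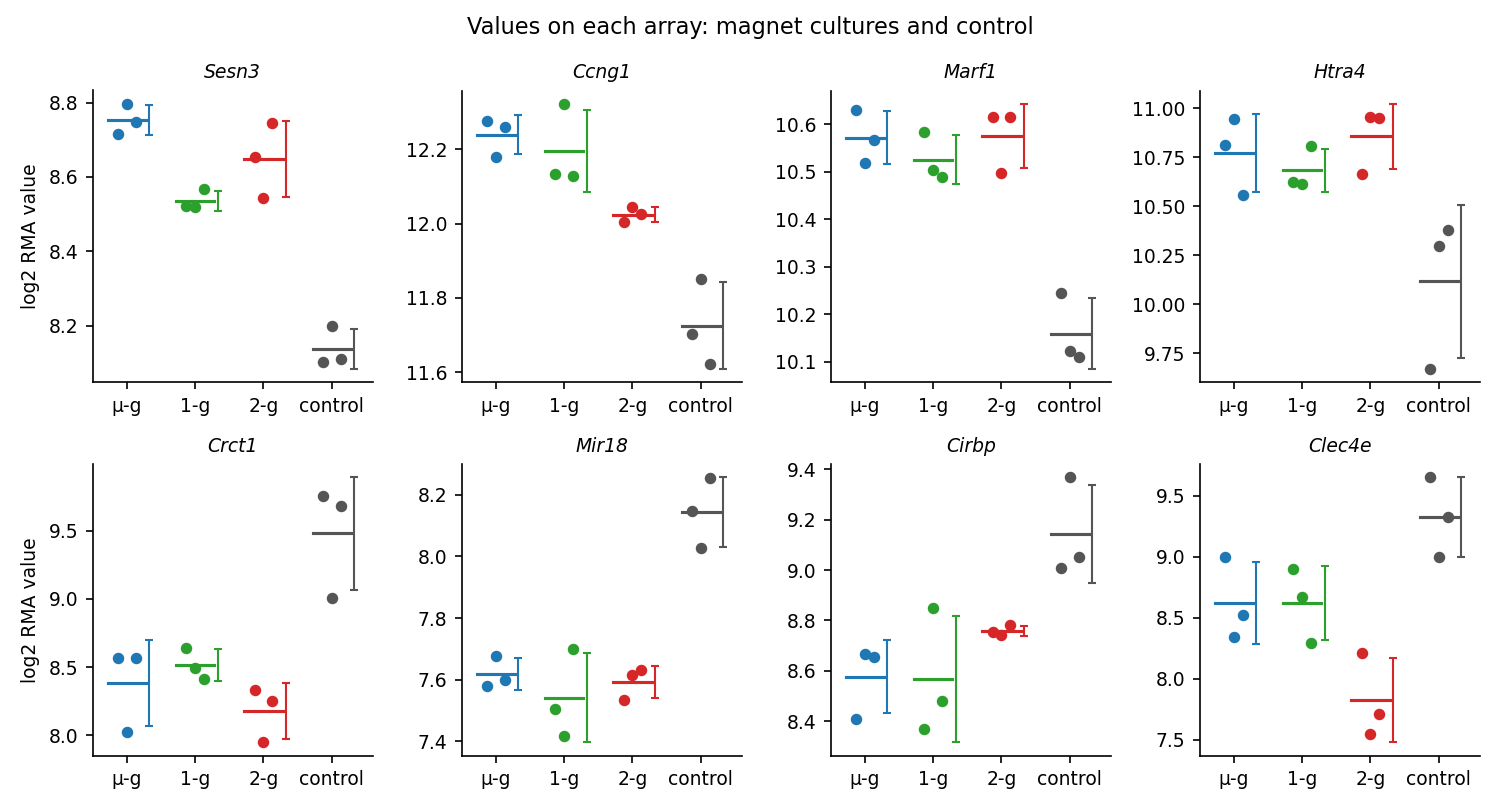
Values of 8 named genes on each of the 12 arrays, in log2 RMA units, with points for arrays, horizontal lines for group means and bars for ± 1 SD (n = 3 each). In all 8 panels every point of μ-g, 1-g and 2-g cells lies on one side of every control point, as the selection of these genes requires. The gap is narrowest for Clec4e and wider for Sesn3 and Mir18.

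Other genes of the stable core, named here after their values were seen, were Exoc4, a subunit of the exocyst that tethers secretory vesicles (0.39), Ttll5, which adds glutamate chains to tubulin (0.35), Gnptab, which tags lysosomal enzymes for sorting (0.31), and the adaptor Sh3d19 (0.29) among the higher genes. Among the lower ones were Sat1, which acetylates polyamines (-0.31), Porcn, which lipidates Wnt proteins (-0.32), and the junction protein gene Igsf5 (-0.36). Their adjusted p values on all arrays lay between 0.00367 for Ttll5 and 0.00951 for Porcn.

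A group of p53 target genes formed the list with the most calls in the upward direction. The tumour suppressor p53 is a transcription factor that is stabilised by DNA damage and other stress, and its targets slow the cell cycle, repair DNA, curb growth signalling and feed back on p53 itself. MLO-Y4 cells carry a viral oncogene that binds p53, and p53 activity was not measured here. Of the 25 measured members, 6 were called higher (0.943% of all genes were) and none lower. Changes were above 0 in 21 of the 25, against 11331 of 19938 over all genes, and the list median was 0.18, against 0.01 over all genes. The list was chosen with earlier results of these data known.

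The called members cover several of those roles. The cyclin gene Ccng1 read 12.01 to 12.32 (median 12.13) on the 9 magnet arrays, against 11.70, 11.85 and 11.62 on the control arrays, and its change of 0.43 ± 0.06 (SE), adjusted p = 0.00666 was kept throughout. Psrc1, which binds microtubules of the spindle, read 10.47 to 10.75 (median 10.56) on the 9 magnet arrays, against 9.98, 10.25 and 9.96 on the control arrays, at 0.53 ± 0.08 (SE), adjusted p = 0.00951. Sesn3, given above, is the third called member. The sestrins Sesn1 and Sesn2, also on the list, were not called (adjusted p = 0.059 and 0.985 in limma). For Ccng1, Psrc1 and Sesn3 every magnet array stood above every control array. Mdm2, the ubiquitin ligase that degrades p53, read 10.98 to 11.31 (median 11.14) on the 9 magnet arrays, against 10.88, 10.74 and 10.85 on the control arrays, a change of 0.30 ± 0.06 (SE), adjusted p = 0.0367. Phlda3, which competes with the kinase AKT for membrane lipid, read 10.92 to 11.08 (median 10.96) on the 9 magnet arrays, against 10.56, 10.79 and 10.77 on the control arrays, a change of 0.27 ± 0.05 (SE), adjusted p = 0.0297. Polk, a DNA polymerase that copies past damaged bases, read 9.06 to 9.43 (median 9.30) on the 9 magnet arrays, against 9.05, 8.88 and 8.95 on the control arrays, a change of 0.33 ± 0.07 (SE), adjusted p = 0.0436. These 3 genes were also without overlap, but with 1 array left out Mdm2 and Polk were called in 2 of the 12 refits each and Phlda3 in 6 of the 12. Among members that did not pass, Trp53inp1 had 0.41, Zmat3 0.37, Eda2r 0.35 and Sesn1 0.33. Others changed little, with 0.05 for Rrm2b, 0.02 for Perp, 0.02 for Sesn2 and 0.01 for Aen. Tigar had -0.03, Ddb2 -0.04 and Bbc3 -0.07. Plk2 had the lowest change at -0.25, and all its magnet arrays lay below all control arrays. The listed targets Cdkn1a, Bax and Gdf15 had no measured value here. The F test called none of the 25 as differing among the magnet groups.

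The number of called list members moved with the arrays used. It was 2 without control replicate 3, 3 without control replicate 1, μ-g replicate 1, μ-g replicate 3, 1-g replicate 3 or 2-g replicate 3, and 9 without μ-g replicate 2. The list median stayed positive under both other scalings, at 0.18 after centring and 0.15 after quantile normalization. The mean level of the 25 genes was 9.168 to 9.395 on the magnet arrays, against 9.087 to 9.106 on the control arrays.

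**Figure D3:**
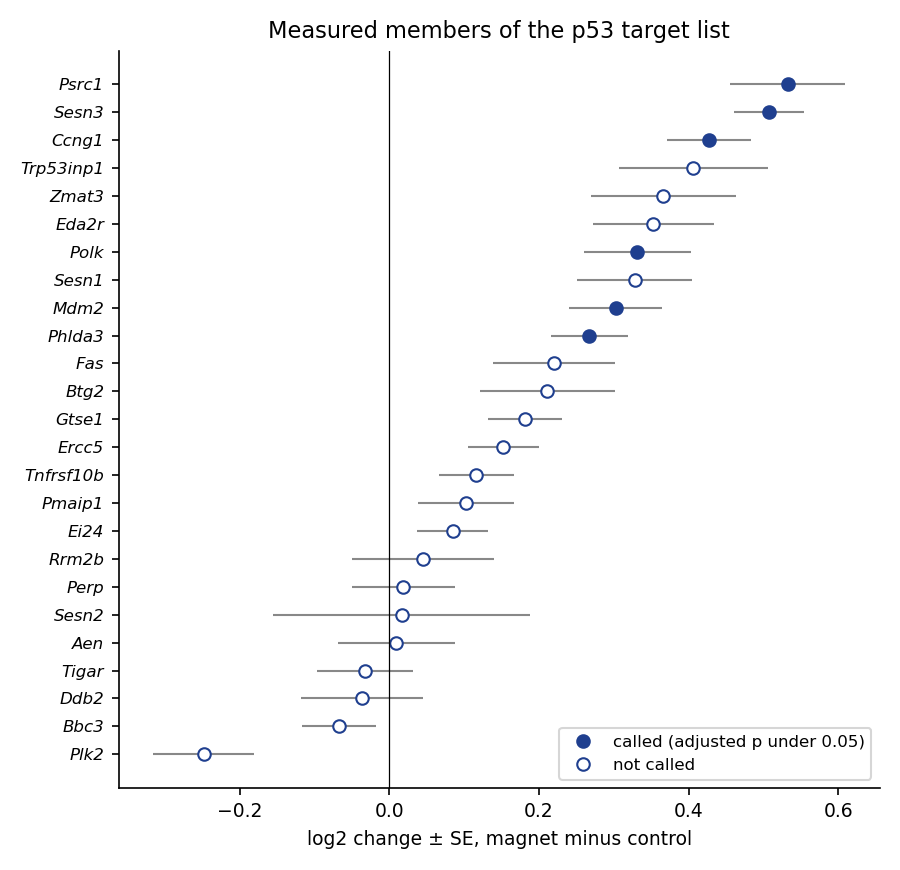
Log2 change of the 9 magnet arrays against the 3 control arrays, ± SE, for the 25 measured members of the p53 target list, sorted by the change. Filled points are the 6 called members, and 21 of the 25 points lie right of 0.

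The promoters of the 6 called members, all higher in magnet cells, were read. The RefSeq table (GRCm38.p6) holds a start for all 6, and the 250 bases before it were searched for the p53 half-site consensus, a palindrome that reads the same on both strands. A full response element has a pair of such half-sites. The half-site occurred before Mdm2, Ccng1 and Polk, 3 of the 6 genes, and before 3 of the 12 members of the list that were not called and have a window. The share that holds it is 8.2% over all 27025 genes of the table and 7.13% over its 32851 windows. The list was made of p53 targets, so a share above that of all genes says nothing about the bore contrast. A match describes the letters and is not a binding site. The 3 windows are given from 5′ to 3′ on the strand of the gene, with the half-site in capitals.
Mdm2 (chr10:117710759-117711008, minus strand): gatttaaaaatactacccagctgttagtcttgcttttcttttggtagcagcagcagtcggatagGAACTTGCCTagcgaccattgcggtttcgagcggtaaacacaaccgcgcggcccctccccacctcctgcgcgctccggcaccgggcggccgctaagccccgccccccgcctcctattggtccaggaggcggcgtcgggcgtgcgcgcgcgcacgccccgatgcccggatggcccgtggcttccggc
Ccng1 (chr11:40755287-40755536, minus strand): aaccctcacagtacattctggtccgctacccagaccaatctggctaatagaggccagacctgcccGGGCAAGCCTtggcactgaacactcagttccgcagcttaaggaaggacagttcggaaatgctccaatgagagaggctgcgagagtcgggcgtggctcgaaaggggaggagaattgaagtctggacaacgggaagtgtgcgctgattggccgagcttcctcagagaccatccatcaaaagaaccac
Polk (chr13:96519188-96519437, minus strand): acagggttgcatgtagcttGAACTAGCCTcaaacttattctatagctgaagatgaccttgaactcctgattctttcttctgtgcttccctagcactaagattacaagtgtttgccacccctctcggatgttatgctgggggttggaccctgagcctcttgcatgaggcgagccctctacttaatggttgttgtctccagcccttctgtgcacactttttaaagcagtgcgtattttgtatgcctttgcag
The half-site begins 186 bases before the start of Mdm2, 185 before that of Ccng1 and 231 before that of Polk, and each window holds 1.

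The 15 lowest called genes without overlap were Crct1, Clec4e, Ccl3, Mir18, S100a8, Cirbp, S100b, Catsperz, Mir19a, Ufsp1, Slpi, Arl11, Il1rn, Arrdc4 and Timm8a1, with log2 changes of -1.12 up to -0.39. Crct1, a small cysteine-rich protein gene of the epidermal differentiation region, read 7.95 to 8.64 (median 8.41) on the 9 magnet arrays, against 9.75, 9.01 and 9.68 on the control arrays. The change of -1.12 ± 0.15 (SE), adjusted p = 0.00740 was kept throughout and was of like size at each position, with -1.09 in μ-g, -0.97 in 1-g and -1.30 in 2-g cells. The control arrays themselves spanned 9.01 to 9.75. Arl11, a small GTPase of the ARF-like family, read 7.02 to 7.48 (median 7.24) on the 9 magnet arrays, against 7.73, 7.65 and 7.64 on the control arrays and was called in each of the 20 settings that tested it. On each magnet array Arl11 lay below the median gene of that array. Ufsp1, a protease of the UFM1 modifier pathway, read 8.25 to 8.43 (median 8.32) on the 9 magnet arrays, against 8.64, 8.68 and 9.02 on the control arrays, at -0.45 ± 0.07 (SE), adjusted p = 0.0106, kept throughout.

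Inflammatory cytokines and chemokines were lower where they were called. Of 32 measured members, 5 were called lower (0.492% of all genes were) and none higher, and the list median was -0.07. Ccl3, a chemokine that draws macrophages and osteoclast precursors, read 9.59 to 10.97 (median 10.88) on the 9 magnet arrays, against 11.17, 11.19 and 11.53 on the control arrays. Its change of -0.70 ± 0.11 (SE), adjusted p = 0.0110 was uneven, with -0.37 in μ-g, -0.37 in 1-g and -1.34 in 2-g cells, and the F test among magnet groups gave an adjusted p of 0.00122. Il1rn, the antagonist of the interleukin-1 receptor, read 7.30 to 7.84 (median 7.64) on the 9 magnet arrays, against 7.86, 8.03 and 8.08 on the control arrays, a change of -0.43 ± 0.06 (SE), adjusted p = 0.0110. Its 2-g arrays were the lowest of the 9 as well. S100a8, an alarmin subunit, read 8.59 to 9.20 (median 8.86) on the 9 magnet arrays, against 9.62, 9.24 and 9.31 on the control arrays, a change of -0.52 ± 0.09 (SE), adjusted p = 0.0188. Its usual partner S100a9 was dimmer, at 5.88 to 6.18 (median 6.04) on the 9 magnet arrays, against 6.05, 6.03 and 6.03 on the control arrays, and was not called.

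The other called members were closer to the threshold. Il6, a cytokine that promotes osteoclast formation, read 11.81 to 12.08 (median 11.97) on the 9 magnet arrays, against 12.21, 12.25 and 12.12 on the control arrays, a change of -0.24 ± 0.05 (SE), adjusted p = 0.0409. The 9 magnet arrays lay below the 3 controls, but the call was kept in 2 of the 12 leave-one-out refits. Tnf read 9.33, 9.28 and 9.24 in μ-g cells, 9.36, 9.38 and 9.16 in 1-g cells and 8.81, 8.74 and 8.71 in 2-g cells, against 9.57, 9.38 and 9.28 in control cells. The μ-g and 1-g arrays overlapped control, and the pooled fall of -0.30 ± 0.06 (SE), adjusted p = 0.0396 stood largely in the 2-g cells (adjusted p = 0.00198 among magnet groups). Of the members not called, Cxcl2 had -0.28, Csf3 -0.27 and Cxcl1 -0.21, while Il1b had -0.08 and Ccl2 -0.03. Without control replicate 3 none of the list was called, and without control replicate 1 there were 2. There were 3 without control replicate 2, μ-g replicate 1, 1-g replicate 3 or any 1 of the 2-g replicates. With magnet arrays given a single mean instead of 1 mean per group, none of the 5 calls was kept. The 19 genes of NF-kB subunits and feedback held no call in limma without a replicate block. At an unadjusted p under 0.05, 3 were higher and 1 lower, against 2003 higher and 986 lower of all 19938 genes.

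Among 23 innate receptors, 3 were called lower (0.492% of all genes were) and none higher. Clec4e, the receptor Mincle that binds microbial and damage-derived glycolipids, read 7.55 to 8.99 (median 8.34) on the 9 magnet arrays, against 9.65, 9.0 and 9.32 on the control arrays, a change of -0.97 ± 0.18 (SE), adjusted p = 0.0231. Gpr84, a receptor of medium-chain fatty acids, read 8.57, 8.42 and 8.01 in μ-g cells, 8.71, 8.50 and 8.01 in 1-g cells and 7.40, 6.97 and 6.97 in 2-g cells, against 9.34, 8.53 and 8.91 in control cells. Its change of -0.97 ± 0.18 (SE), adjusted p = 0.0231 was also unequal among the positions (adjusted p = 0.00797), and 1 μ-g array and 1 of the 1-g arrays lay above the lowest control array. Clec4d, a neighbour of Clec4e in sequence and genome, read 7.04, 6.73 and 6.92 in μ-g cells, 7.23, 6.81 and 6.96 in 1-g cells and 6.62, 6.44 and 6.48 in 2-g cells, against 7.36, 6.99 and 7.42 in control cells, a change of -0.45 ± 0.10 (SE), adjusted p = 0.0473. Another member of that family, Clec4n, lay at 4.92 to 5.06 on magnet arrays and was not called. Clec4d lay below the median gene on every array, and with no detection call its signal could not be told from background. The list held no call without control replicate 1, control replicate 3, 2-g replicate 3 or the whole 2-g group, and none with a single mean for the magnet arrays. Slpi, a secreted inhibitor of leukocyte proteases, fell at all positions but least in 2-g cells, with -0.55 in μ-g, -0.56 in 1-g and -0.20 in 2-g cells. Its arrays read 10.06, 10.01 and 9.91 in μ-g cells, 9.99, 10.02 and 9.95 in 1-g cells and 10.28, 10.36 and 10.41 in 2-g cells, against 10.51, 10.46 and 10.67 in control cells, a change of -0.44 ± 0.05 (SE), adjusted p = 0.00600, and the magnet groups differed at an adjusted p of 0.0110.

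Of 26 measured interferon-induced genes, 2 were called higher (0.943% of all genes were) and none lower. Changes were above 0 in 22 of the 26, against 11331 of 19938 over all genes, and the median was 0.10, against 0.01 over all genes. Oas3, which makes the messenger that activates RNase L, read 9.84 to 10.17 (median 9.98) on the 9 magnet arrays, against 9.61, 9.73 and 9.72 on the control arrays, a change of 0.32 ± 0.06 (SE), adjusted p = 0.0236. Trim30a, an interferon-induced TRIM protein gene, read 11.75 to 12.15 (median 11.93) on the 9 magnet arrays, against 11.54, 11.76 and 11.57 on the control arrays, a change of 0.31 ± 0.07 (SE), adjusted p = 0.0454. The lowest magnet array of Trim30a fell just under the highest control array. Neither call was kept when any 1 of the control arrays was left out. Oas2 had a change of 0.48 with an adjusted p of 0.057.

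**Figure D4:**
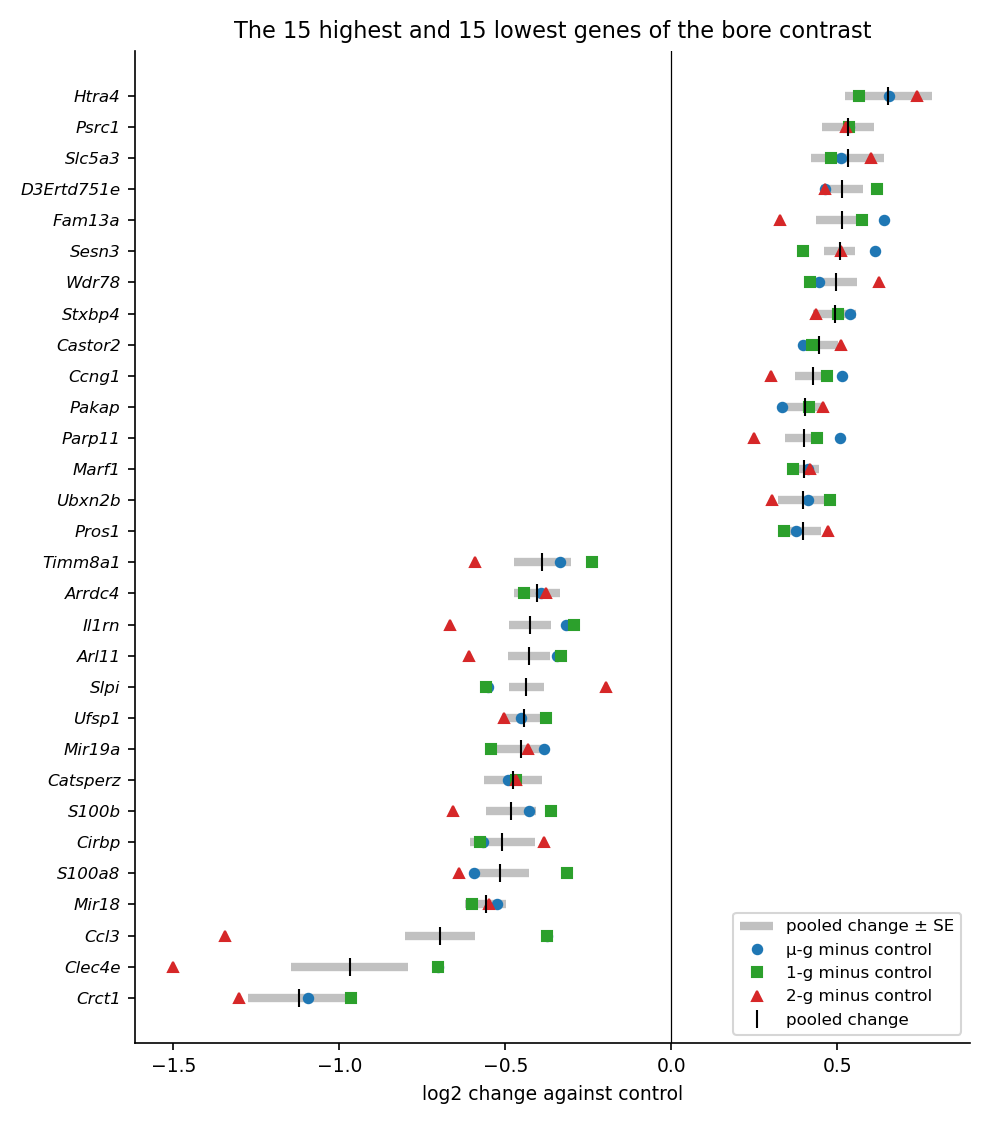
Log2 change against control of μ-g, 1-g and 2-g cells for the 15 highest and 15 lowest called genes without overlap, with the pooled change as a black mark on a grey bar of ± 1 SE. The 3 symbols of a gene lie on the same side of 0 in all 30 rows, as the selection without overlap requires. They lie close together for Psrc1, Marf1, Mir18 and Catsperz and apart for Ccl3, Clec4e and Slpi.

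The cold-inducible RNA-binding proteins fell while the heat shock genes did not pass. Cirbp and Rbm3 are related RNA-binding proteins whose transcripts rise in mildly cooled mammalian cells and fall with warming. Cirbp read 8.37 to 8.85 (median 8.67) on the 9 magnet arrays, against 9.01, 9.37 and 9.05 on the control arrays, a change of -0.51 ± 0.10 (SE), adjusted p = 0.0289. Rbm3 read 13.17 to 13.45 (median 13.26) on the 9 magnet arrays, against 13.50, 13.66 and 13.49 on the control arrays, a change of -0.28 ± 0.06 (SE), adjusted p = 0.0451. For both genes all magnet arrays lay below all control arrays. The changes of Rbm3 were -0.28 in μ-g, -0.25 in 1-g and -0.30 in 2-g cells. Of the 16 measured members of the heat shock and cold-inducible list these 2 were called, both lower (0.492% of all genes were). Changes were above 0 in 12 of the 16, against 11331 of 19938 over all genes. At an unadjusted p under 0.05 in limma 2 members were higher, against 2003 of all genes. The heat shock members Hspa1a, Hspa8, Dnajb1, Hsp90aa1 and Hsph1 had changes of 0.00, 0.04, 0.03, 0.10 and 0.18, with adjusted p values of 0.332 or more. Cirbp kept its call in 7 of the 12 leave-one-out refits and Rbm3 in 2 of the 12, and neither was called without control replicate 1, 2 or 3. Temperature was nominally the same in the bore and in the incubator, and no record of it was analysed here.

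The hairpins Mir18 and Mir19a, from 1 primary transcript, were called lower in magnet cells. MicroRNAs are cut from hairpins within longer primary transcripts and repress messengers that match their seed, bases 2 to 8 of the mature form. Mir18 and Mir19a lie with Mir17, Mir20a and Mir19b-1 within 721 bases of chromosome 14, in the primary transcript Mir17hg. The array probes for these genes read hairpin or primary transcript RNA, not the mature microRNA, and since the hairpins lie inside Mir17hg their signals may overlap. The mature forms (RefSeq, GRCm38.p6) are shown to set the hairpins that were called beside their neighbours, with the seed in capitals.
miR-18a-5p (chr14:115043867-115043889, plus strand): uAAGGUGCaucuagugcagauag
miR-19a-3p (chr14:115044048-115044070, plus strand): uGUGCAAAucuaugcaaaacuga
miR-19b-3p (chr14:115044358-115044380, plus strand): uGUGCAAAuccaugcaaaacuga
miR-17-5p (chr14:115043684-115043706, plus strand): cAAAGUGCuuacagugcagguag
miR-20a-5p (chr14:115044183-115044205, plus strand): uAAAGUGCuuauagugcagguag
The miR-19a and miR-19b forms share the seed GUGCAAA, miR-17 and miR-20a share AAAGUGC, and miR-18a carries AAGGUGC.

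Mir18 read 7.42 to 7.70 (median 7.60) on the 9 magnet arrays, against 8.15, 8.03 and 8.25 on the control arrays. Its change of -0.56 ± 0.06 (SE), adjusted p = 0.00400 was of like size at each position, with -0.52 in μ-g, -0.60 in 1-g and -0.55 in 2-g cells, and it was kept throughout. Mir19a read 6.11 to 6.49 (median 6.40) on the 9 magnet arrays, against 6.98, 6.63 and 6.81 on the control arrays, a change of -0.45 ± 0.07 (SE), adjusted p = 0.0161, and was not called without control replicate 1 or 3. The host Mir17hg, named after its values were seen, read 5.77 to 6.17 (median 6.07) on the 9 magnet arrays, against 6.54, 6.40 and 6.22 on the control arrays, a change of -0.34 ± 0.07 (SE), adjusted p = 0.0377, called in 2 of the 12 leave-one-out refits. All 3 were lower on every magnet array. Mir19a and Mir17hg lay below the median gene of the arrays, and with no detection call their signal could not be told from background. The other hairpins were not called, with changes of 0.03 for Mir17, -0.03 for Mir20a and -0.15 for Mir19b-1. Mir20a read at most 5.21 on the magnet arrays, also below the median gene, so its signal could not be told from background either. The called hairpins miR-18a and miR-19a carry different seeds. Over all 297 measured microRNA genes, Mir18 and Mir19a were the only 2 called, and the median change was 0.01.

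Small nucleolar RNAs, which guide chemical marks on ribosomal RNA and are mostly cut from introns, had 53 measured members. Changes were below 0 in 43 of them, whereas 11331 of all 19938 genes had changes above 0, and the median was -0.11, and 3 were called lower (5.66%, against 0.492% of all genes). These were Snord52 (7.07 to 7.31 (median 7.26) on the 9 magnet arrays, against 7.80, 7.32 and 7.67 on the control arrays), Snord16a (9.82 to 10.23 (median 9.996) on the 9 magnet arrays, against 10.43, 10.28 and 10.27 on the control arrays) and Snord95 (8.06 to 8.27 (median 8.24) on the 9 magnet arrays, against 8.51, 8.47 and 8.38 on the control arrays). Their changes were -0.37, -0.32 and -0.25, with adjusted p values of 0.0451, 0.0290 and 0.0255, and none was called without control replicate 1 or 3. The magnet arrays of Snord52 lay below the median gene of the arrays. Spliced host genes of this class were looked at without matching them to the 3 called members. Snhg5 (-0.25 ± 0.04 (SE), adjusted p = 0.0189) and Snhg16 (-0.29 ± 0.06 (SE), adjusted p = 0.0433) were lower, whereas Gas5 had 0.04 ± 0.08 (SE), adjusted p = 0.906. This class was chosen after values were seen.

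Of the genes of mitochondrial translation 1 was called. All 40 measured mitochondrial ribosomal protein genes had changes below 0, under each of the 3 scalings, with a median of -0.07. By position the median was -0.08 in μ-g, -0.04 in 1-g and -0.15 in 2-g cells. Over all 19938 genes, 11331 had changes above 0. Only Mrpl2, of the large subunit, was called (0.492% of all genes were called lower). It read 9.34 to 9.61 (median 9.50) on the 9 magnet arrays, against 9.71, 9.63 and 9.79 on the control arrays, a change of -0.22 ± 0.04 (SE), adjusted p = 0.0350, kept in 5 of the 12 leave-one-out refits. Of 39 respiratory chain genes 34 had changes below 0, with a median of -0.07 and no call in limma without a replicate block. At an unadjusted p under 0.05 in limma 9 of them were lower, against 986 of 19938 over all genes. Their median was -0.07 in μ-g, -0.04 in 1-g and -0.10 in 2-g cells. Among 29 ribosome biogenesis genes, 26 were below 0 and Noc4l was called at -0.25 ± 0.04 (SE), adjusted p = 0.0188, but the list medians were -0.01 in μ-g, -0.04 in 1-g and -0.32 in 2-g cells, and the 2-g median was the lowest of the 3. The 30 cytosolic ribosomal protein genes had a median of -0.02 and no call. Members of 1 complex are not independent of each other, and these lists were chosen with earlier results known.

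Single members of other lists were called (0.943% of all genes were called higher and 0.492% lower). Nqo1, a quinone reductase regulated by NRF2, fell, at 11.27 to 11.54 (median 11.41) on the 9 magnet arrays, against 11.63, 11.79 and 11.78 on the control arrays, a change of -0.32 ± 0.05 (SE), adjusted p = 0.0110. Hexa, a lysosomal enzyme subunit, rose, at 11.59 to 11.85 (median 11.78) on the 9 magnet arrays, against 11.44, 11.44 and 11.56 on the control arrays, a change of 0.28 ± 0.06 (SE), adjusted p = 0.0399, as did Ptpn14, a phosphatase that restrains YAP, at 10.45 to 10.95 (median 10.78) on the 9 magnet arrays, against 10.48, 10.32 and 10.38 on the control arrays, a change of 0.36 ± 0.08 (SE), adjusted p = 0.0471. Nqo1 kept its call in 10 of the 12 leave-one-out refits, Hexa in 2 of the 12 and Ptpn14 in 2 of the 12. Other lowered genes were S100b, at 10.35 to 10.92 (median 10.78) on the 9 magnet arrays, against 11.23, 11.12 and 11.21 on the control arrays, Arrdc4, an arrestin-domain relative of Txnip, at 9.49 to 9.85 (median 9.68) on the 9 magnet arrays, against 10.13, 9.99 and 10.11 on the control arrays, Catsperz, known as a sperm channel component, at 7.59 to 8.02 (median 7.70) on the 9 magnet arrays, against 8.09, 8.29 and 8.28 on the control arrays, and Timm8a1, a chaperone of mitochondrial import, at 8.75 to 9.37 (median 9.15) on the 9 magnet arrays, against 9.60, 9.45 and 9.49 on the control arrays. Timm8a1 was nearest to the threshold, at -0.39 ± 0.09 (SE), adjusted p = 0.0476, and was called in 3 of the 12 refits. The lists for collagens and matrix, actin and adhesion, circadian clock, ER stress and cell cycle held no call without a replicate block. Nor did those for cholesterol synthesis, iron, BCL2 family and caspases, or mechanosensitive and calcium channels. Medians of these lists lay between -0.07 and 0.09. At an unadjusted p under 0.05 in limma, the matrix list had 9 of 32 members higher and 1 lower and the cell cycle list 10 of 35 higher. Each of the other lists had at most 4 in either direction. Over all 19938 genes, 2003 were higher and 986 lower at that threshold.

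The pooled mean hid opposite changes in the hypoxia genes. These are the targets of hypoxia-inducible factors, which accumulate when oxygen is low. Of 34 measured members 29 differed among the magnet groups in the F test (2.44% of all genes did), whereas the bore contrast called 2, both lower (0.492% of all genes were). The list medians against control were -0.50 in μ-g, -0.54 in 1-g and 0.66 in 2-g cells, and the pooled median was -0.10. Bnip3, a mitophagy receptor, read 9.70, 10.22 and 9.75 in μ-g cells, 10.07, 10.29 and 10.06 in 1-g cells and 12.57, 12.66 and 12.50 in 2-g cells, against 11.78, 12.03 and 10.95 in control cells. Ndufa4l2, a mitochondrial protein induced by hypoxia, read 6.79, 7.07 and 6.94 in μ-g cells, 7.12, 7.14 and 6.78 in 1-g cells and 10.51, 11.02 and 10.44 in 2-g cells, against 8.94, 10.04 and 8.18 in control cells. The 2-g arrays stood above the μ-g and 1-g arrays of these genes, which were named after their values were seen, and the control arrays lay between them with a wide spread. Neither was called in the bore contrast (adjusted p = 0.0666 and 0.146). The mean level of the list was 9.11 to 9.28 on the μ-g and 1-g arrays and 10.43 to 10.62 on the 2-g arrays, against 9.565 to 10.17 on the control arrays.

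The called genes with the smallest p among the magnet groups had unequal changes at the 3 positions. Epas1, which encodes hypoxia-inducible factor 2 alpha, read 8.69, 8.75 and 8.66 in μ-g cells, 8.52, 8.59 and 8.54 in 1-g cells and 8.03, 7.91 and 7.96 in 2-g cells, against 8.17, 7.98 and 8.02 in control cells. Its pooled change of 0.35 ± 0.05 (SE), adjusted p = 0.00740 came from 0.64 in μ-g, 0.49 in 1-g and -0.09 in 2-g cells, with an adjusted p of 3.84e-05 among the magnet groups. Cox7a1, a subunit of cytochrome c oxidase, read 7.80, 8.18 and 8.04 in μ-g cells, 8.10, 8.25 and 8.16 in 1-g cells and 9.85, 10.14 and 9.67 in 2-g cells, against 9.38, 9.82 and 9.03 in control cells, a pooled change of -0.72 ± 0.14 (SE), adjusted p = 0.0286. The 2-g arrays of Cox7a1 were not below control. Pgk1, a glycolytic enzyme, had -0.64 in μ-g, -0.57 in 1-g and 0.27 in 2-g cells, and Pafah1b3, a subunit of a platelet-activating factor hydrolase, had -0.58 in μ-g, -0.48 in 1-g and 0.13 in 2-g cells. Bcl9l, a coactivator of beta-catenin, had 0.05 in μ-g, 0.08 in 1-g and 0.55 in 2-g cells. Car12, a carbonic anhydrase and the second hypoxia gene called, had -1.03 in μ-g, -1.04 in 1-g and -0.19 in 2-g cells. None of these 6 genes had all magnet arrays beyond control, and exact permutation tests of 9 against 3 arrays gave two-sided p values between 0.0545 (Car12) and 0.218 (Pgk1), where the smallest that 220 splits allow is 0.00909. Spry3, a sprouty-family inhibitor of growth factor signalling named after its values were seen, was higher at all positions, with 0.32 in μ-g, 0.27 in 1-g and 0.58 in 2-g cells and an adjusted p of 0.0238 among the groups. It read 9.05, 8.97 and 8.89 in μ-g cells, 8.96, 8.83 and 8.98 in 1-g cells and 9.21, 9.28 and 9.22 in 2-g cells, against 8.65, 8.71 and 8.60 in control cells.

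Genes called higher were longer than genes called lower. The span of a gene, from the first to the last base of its RefSeq annotation (GRCm38.p6), was known for 99.6% of genes and for all called genes. Its median was 60.9 kb (quartiles 26.2 and 104) for the 188 genes called higher and 5.99 kb (quartiles 2.49 and 14.8) for the 98 called lower, against 17.6 kb (quartiles 5.92 and 45.8) for genes not called. Of 18553 protein-coding genes cut into deciles of span, the 5 longest deciles held 157 genes called higher and 18 called lower, and the 5 shortest held 29 higher and 68 lower. The median change per decile lay between -0.01 and 0.05. These values are a description, chosen after the data were seen. Genes share arrays and are not independent replicates.

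Spearman's rank correlation between span and bore change across the protein-coding genes was 0.25, and 0.42 for the 9728 genes above the median level. It was 0.28 for μ-g, 0.23 for 1-g and 0.14 for 2-g cells against the same controls, and -0.11 for 2-g minus μ-g cells, which uses no control array. Over the 21 alternative settings the rank correlation ran from 0.19 (without control replicate 3) to 0.42, the median span of genes called higher from 49.97 to 72.9 kb and that of genes called lower from 4.90 to 10.04 kb. On single arrays, the mean deviation from the control mean of the longest decile minus the shortest was 0.03 to 0.10 on the magnet arrays, lowest on μ-g replicate 2, against 0.02, 0.01 and -0.02 on the control arrays. Among genes above the median level it was 0.06 to 0.27 on the magnet arrays, against 0.08, -0.01 and -0.07 on the control arrays, so that μ-g replicate 2 and 2-g replicate 2 overlapped control replicate 1.

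**Figure D5:**
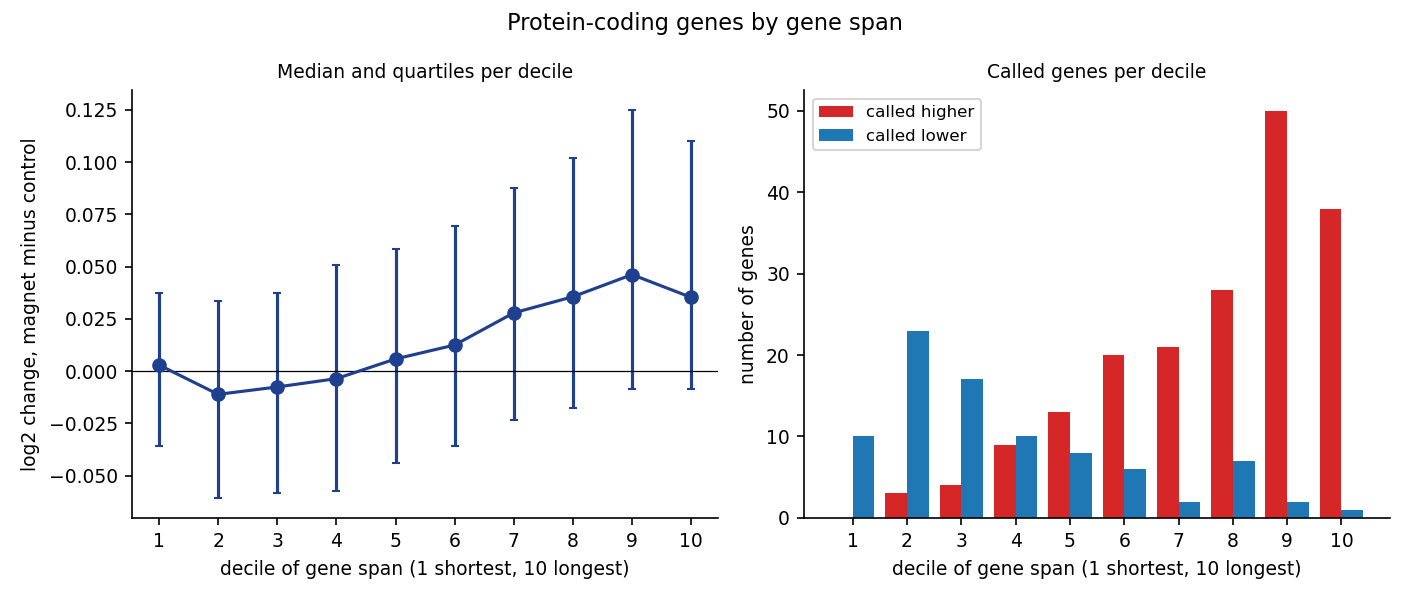
Protein-coding genes in deciles of gene span, with the median log2 change of magnet against control and its quartiles (left) and the number of genes called higher and called lower (right). The medians climb from near 0 in the short deciles to 0.05 in the ninth decile, with quartiles that are wider than this climb, and calls pass from mostly lower (23 against 3 higher in decile 2) to mostly higher (2 lower against 50 higher in decile 9).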

How the data were processed

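Gene expression of the MLO-Y4 cultures was read from Affymetrix Mouse Gene 1.0 ST arrays, 3 for each of μ-g, 1-g, 2-g and control. The authors normalized the probe intensities with RMA (version not given in the sources used here) and deposited log2 values for 28856 transcript clusters, so background correction and summarisation are theirs, and raw intensities were not used. Of the clusters, 21789 had a single gene symbol and gave 19938 genes. Where a gene had several clusters (999 genes), the brightest on average was kept. Clusters with several symbols (1621) or none (5446) entered only the fit of all clusters.

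One mean per group was fitted to the 12 arrays (limma 3.58.1, R 4.3.3), with empirical Bayes moderation (8 residual and 4.92 prior degrees of freedom) and no covariates, since the methods of the study name LIMMA and none. The bore contrast was the mean of the 3 magnet groups minus control. P-values were adjusted after Benjamini and Hochberg over all 19938 genes, and genes under 0.05 are termed called. The F test of the magnet groups came from the same fit. Exact permutation used all 220 splits and was two-sided. The fit was tested on simulated data with independent noise on each array. Those data held no shared effect of the replicate number, so the test does not bear on pairing. The arrays have no read depth, and their number limits the precision. Pearson's r across genes was 0.9971 to 0.9983 within groups and 0.9951 to 0.9979 between magnet and control arrays. Spans and sequences came from RefSeq tables (GRCm38.p6).

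Genes were named by rule: the 15 highest and 15 lowest called genes whose 9 magnet arrays lie beyond the 3 controls, the 5 called genes with the smallest p among magnet groups, up to 4 members of a list with the largest change, and the called members of a list with 5 or fewer calls. Others, such as Mdm2 and Phlda3, were named after their values were seen. The contrast and the 31 gene lists (707 of 767 entries measured) were chosen with earlier results of these data known. Alternatives were a replicate block, centred arrays, quantile normalization, genes above the median level, an intensity trend with a robust prior, 2 means, all clusters, each magnet group left out of the contrast and each array left out.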

Additional observations from a re-analysis of the deposited data

Results flagged for a closer look

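Named genes whose changes differed among the magnet groups, by the F test in the same fit (adjusted p over all genes), are given here with their values. Genes lower mostly in 2-g cells were Ccl3 (0.00122), Il1rn (0.0300), Tnf (0.00198) and Gpr84 (0.00797). The log2 changes against control of Ccl3 were -0.37 in μ-g, -0.37 in 1-g and -1.34 in 2-g cells, and those of Gpr84 were -0.59 in μ-g, -0.52 in 1-g and -1.81 in 2-g cells. Genes lower in μ-g and 1-g cells, and higher or less changed in 2-g cells, were Cox7a1 (6.83e-05), Pgk1 (9.49e-05), Pafah1b3 (0.000219), Car12 (0.0487), Ndufa4l2 (4.81e-05), Bnip3 (3.31e-05) and Slpi (0.0110). The change of Bnip3 was -1.70 in μ-g, -1.45 in 1-g and 0.99 in 2-g cells. Epas1 (3.84e-05) was higher in μ-g and 1-g cells alone, and Bcl9l (0.000499) and Spry3 (0.0238) were highest in 2-g cells. For these genes the pooled bore change is not a common value of the positions.

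A lone array stood apart from the other 8 magnet arrays in 2 of the 82 named genes tested, and chance flags about 1 in 20 such groups (5%). In Mir17hg it was μ-g replicate 3, at 5.77, below the other magnet arrays. In Mir20a it was 2-g replicate 2, at 5.21, above the others.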

How the results depend on the processing

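The direction of the 286 called genes was the same in each of the 21 alternatives that tested them, the fit of all clusters aside, which their selection makes likely. Of 1424 values of the named called genes under the alternatives none was reversed, 1079 stayed past the threshold and 345 did not. The labels do not say that a replicate number marks a shared run or culture. Same-numbered magnet and control arrays deviated together, with a correlation over 0.1, in 8 of 9 pairs (0.02 for μ-g replicate 3, up to 0.50), and each of the 12 arrays correlated best, outside its own group, with an array of its own number, which is a hint from the data and not from the design. By a rule chosen for this report, the numbers counted as pairing only if all 9 pairs passed. The main fit therefore has no block, and the block is given here alone. With the replicate number as a block, 1412 genes were called (958 higher and 454 lower, 469 with 9 arrays beyond 3 controls), 1663 differed among the magnet groups, and 319 passed both. All 286 calls were among the 1412. Lists with no call without the block gained calls with it, among them osteocyte and osteoblast markers (2 higher and 1 lower), adipocyte markers (2 higher), macrophage markers (1 lower), matrix (4 higher and 1 lower), cell cycle (5 higher), ER stress (3 higher and 5 lower) and respiratory chain (4 lower). With the block p53 targets had 14 higher and 1 lower, and hypoxia genes had 13 lower and none higher. With 2 means, 158 were called (116 higher and 42 lower), with all transcript clusters 183 (123 higher and 60 lower), and without the μ-g group 147 (96 higher and 51 lower, 125 beyond control). Centring left 118 higher calls and quantile normalization 108. Without the 2-g group, 388 calls lay beyond control, 0 genes differed between μ-g and 1-g in limma (437 at an unadjusted p under 0.05), and 0 passed both. With 1 array left out, the counts ran from 46 to 467 for all calls, 22 to 345 for higher, 21 to 122 for lower, 33 to 341 beyond control, 173 to 592 among magnet groups and 4 to 47 for both. The cause of these differences was not tested. The smallest change called without the block was 0.16.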
